A study of Homo sapiens with 12 samples.

Results

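The 8 genes described here are KRTAP2-3, AOC2, AOC3, OVGP1, RPSAP52, HMGA2, IL24 and RAB3B, out of 60664 in the deposited table. In MDA-MB-231 cells 7 of them were chosen by their counts, as genes that rose steeply from a low level in strongly acid medium, with no numeric threshold stated. HMGA2 was added because RPSAP52 is transcribed from the opposite strand beside it. The values used for that choice are their levels at pH 6.4 and pH 7.4, so for them that difference is described and not tested. All 8 passed the filter on low counts that left 17544 genes for testing.

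MDA-MB-231 is a human triple-negative breast cancer line, here unmodified and grown in high-glucose DMEM with fetal bovine serum. Cells near confluence were moved for 24 h to medium of pH 7.4 (control), pH 6.9 or pH 6.4, with 4 libraries of poly(A)-selected RNA in each medium. The sample labels call the middle medium pH 6.9, but the protocol text gives pH 6.7 for it, and the labels' value is used. The labels number the libraries of a medium as repeats 1 to 4 without stating separate cultures, so p-values measure only the spread between these samples. All groups are a single tumour line kept in culture, with no other cell type present by design.

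KRTAP2-3 encodes a sulfur-rich protein that cross-links keratins in the hair shaft. AOC2 and AOC3 are neighbouring genes for copper amine oxidases, which turn primary amines into aldehydes with release of ammonia and hydrogen peroxide. AOC3 is also known as vascular adhesion protein, found on endothelium, smooth muscle and fat cells, and AOC2 was first described in retina. OVGP1 is a secreted glycoprotein of the oviduct that belongs to the chitinase-like family. IL24 is a cytokine that signals through receptor pairs built from IL20RA, IL20RB and IL22RA1 and then through JAK1 and STAT3. RAB3B is a small GTPase of regulated secretion, which cycles between secretory vesicles and the cytosol. HMGA2 is a chromatin protein that bends DNA, is abundant in embryonic tissue and many tumours, and is a classical target of the let-7 microRNAs. RPSAP52 is a transcribed pseudogene of the ribosomal protein gene RPSA, and in tumour cells its RNA has been linked to HMGA2 and to the RNA-binding protein IGF2BP2.

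Total counts ran from 21060767 to 50643233 per library, and 17841 to 27384 genes had at least 1 read. A pair of libraries stood apart. Repeat 1 at pH 7.4 had the fewest detected genes and lay at -144.67 on the first principal component, where the other 11 libraries lay between -7.24 and 36.39. Repeat 3 at pH 6.4 lay at -2.63 on the second component, against 39.48 to 67.03 in the other pH 6.4 libraries. Values without both are given where they change a result. Markers of the line were present in all libraries. Of these 5, 4 were called higher at pH 6.4 than at pH 7.4, where 15.6% of all genes were. VIM, one of them, averaged 2394 CPM at pH 6.4 and 1633 CPM at pH 7.4. CAV1 was called lower, at 942.1 and 1603 CPM (log2 -0.77, edgeR adjusted p = 0.000238). Of 6 luminal genes the receptors ESR1 and PGR were at or near 0. The luminal list still summed to 383.7 to 485.9 CPM at pH 6.4 and 565.1 to 700.3 CPM at pH 7.4, nearly all KRT18, and KRT18 (log2 -0.59, edgeR adjusted p = 0.000614) and CDH1 (-1.76, 0.00776) were called lower. CPM here means TMM-normalized counts per fixed library total.

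The phrase switched on did not hold literally for any of the 8. At pH 7.4 every one had reads in every library, the fewest being 3 reads of KRTAP2-3 in repeat 1, which is at the floor of 3 counts. AOC2 already stood at 2.28 to 3.51 CPM and HMGA2 at 59.6 to 97.5 CPM. At pH 7.4 KRTAP2-3 lay above 10.0% of the tested genes and AOC2 above 32.4%, while HMGA2 lay above 81.7%. At pH 6.4 the 7 chosen genes stood below the middle of the range, above 38.7% (OVGP1) to 47.7% (RPSAP52) of tested genes.

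The start regions of 4 of the 8 genes were found in the RefSeq promoter table (GRCh38.p14). They are shown to give the letters that precede the genes, and not as evidence that the genes share control, since their common rise was what chose them. Each runs from 250 bases before the start site to 50 after it, 5′ to 3′ on the gene's strand. KRTAP2-3 is at chr17:41060065-41060364 on the minus strand, AOC2 at chr17:42844330-42844629 on the plus strand, IL24 at chr1:206897193-206897492 on the plus strand and RAB3B at chr1:51990651-51990950 on the minus strand. Capitals mark matches to the motifs searched on both strands, which were the AP-1 site TGANTCA, the cyclic AMP element TGACGTCA, the ATF4 element TGATGNAA, the E-box CACGTG and the TATA box TATAAA.
KRTAP2-3: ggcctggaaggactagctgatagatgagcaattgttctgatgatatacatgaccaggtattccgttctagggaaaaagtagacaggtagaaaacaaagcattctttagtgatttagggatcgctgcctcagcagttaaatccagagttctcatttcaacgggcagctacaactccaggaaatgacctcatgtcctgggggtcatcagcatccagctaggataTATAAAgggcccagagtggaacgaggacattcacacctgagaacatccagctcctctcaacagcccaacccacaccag
AOC2: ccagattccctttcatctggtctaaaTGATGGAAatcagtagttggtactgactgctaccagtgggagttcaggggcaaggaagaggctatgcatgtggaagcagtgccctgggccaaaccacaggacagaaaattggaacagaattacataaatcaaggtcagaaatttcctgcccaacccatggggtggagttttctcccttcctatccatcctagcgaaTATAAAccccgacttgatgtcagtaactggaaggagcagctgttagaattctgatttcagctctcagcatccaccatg
IL24: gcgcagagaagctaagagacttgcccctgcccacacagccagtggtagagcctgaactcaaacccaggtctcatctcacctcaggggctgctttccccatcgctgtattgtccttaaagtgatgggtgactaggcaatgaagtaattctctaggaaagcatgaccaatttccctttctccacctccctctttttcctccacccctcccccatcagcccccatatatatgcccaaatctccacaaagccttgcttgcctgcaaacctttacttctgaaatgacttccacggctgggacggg
RAB3B: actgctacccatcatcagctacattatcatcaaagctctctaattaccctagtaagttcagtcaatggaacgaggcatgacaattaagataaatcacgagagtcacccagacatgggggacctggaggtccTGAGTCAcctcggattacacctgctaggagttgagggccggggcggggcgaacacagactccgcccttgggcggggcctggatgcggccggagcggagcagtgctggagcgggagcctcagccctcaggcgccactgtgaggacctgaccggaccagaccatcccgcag

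KRTAP2-3 and AOC2 both held TATAAA with its first base at -28, a sequence found in 11.5% of the 35116 promoters of the same length. This share and those below count a match anywhere in the window on either strand, not at the position named. AOC2 also held the ATF4 element as TGATGGAA at -224, against 3.62% of all promoters. RAB3B held the AP-1 site as TGAGTCA at -119, against 7.71% of all promoters. The pattern TGANTCA reads the same on both strands, so the same site matched on both. IL24 held none of the 5 motifs in this window. None of the 4 held TGACGTCA (1.85% of promoters) or CACGTG (7.26%). Their GC content was 47.3% in KRTAP2-3, 47.0% in AOC2, 52.0% in IL24 and 58.7% in RAB3B, against a median of 58.7% over all promoters. A match describes letters and not a bound site.

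KRTAP2-3 had the steepest change of the 8. The gene lies at chr17:41059240-41060114 (GRCh38, minus strand) and is 875 bases long. In the order of repeats 1 to 4 it had 0.0871, 0.269, 0.605 and 0.535 CPM at pH 7.4, 1.06, 2.22, 0.649 and 1.32 CPM at pH 6.9, and 4.66, 5.07, 2.83 and 9.97 CPM at pH 6.4. The 3 media did not overlap, so that every pH 6.9 library lay above every pH 7.4 library and below every pH 6.4 library. The fitted log2 change was 3.94 (SE 0.54) for pH 6.4 over pH 7.4, which placed it 9th among 2737 genes called higher. The other 14 keratin-associated protein genes looked at had at most 2 reads in any library. KRTAP2-4 was listed at 0 in all of them. Its coding sequence differs from that of KRTAP2-3 at 1 of 384 positions (99.7% identity). Of all 75-base windows of KRTAP2-3, 36.1% are also found in another gene, and whether reads with several possible places were counted is not stated in the labels, so its level is uncertain to that extent and the 0 of KRTAP2-4 does not show that it was silent.

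AOC2 and AOC3 lie head to tail on chromosome 17, AOC2 at 42844600 to 42850707 and AOC3 at 42851184 to 42858130, both on the plus strand. AOC2 had 3.51, 2.87, 2.28 and 2.92 CPM at pH 7.4, 2.07, 2.54, 2.38 and 2.13 CPM at pH 6.9, and 8.49, 16.0, 3.44 and 14.2 CPM at pH 6.4. In the strongly acid medium 3 of the 4 libraries lay above all pH 7.4 libraries, and repeat 3 lay just under the highest of them. Its log2 change was 1.85 (SE 0.35) over pH 7.4, and 2.25 without the pair of libraries that stood apart. AOC3 had 0.290, 0.682, 1.12 and 1.05 CPM at pH 7.4, 0.776, 1.29, 0.721 and 0.895 CPM at pH 6.9, and 4.14, 12.2, 1.39 and 7.64 CPM at pH 6.4. All pH 6.4 libraries exceeded all others, with repeat 3 again the lowest. Its log2 change was 3.03 (SE 0.55). Of the 75-base windows of AOC3, 9.60% also occur in the pseudogene AOC4P, and none of those of AOC2 occur in another gene.

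OVGP1, on chromosome 1 at 111414314 to 111427777 (minus strand), had 0.348, 0.910, 0.652 and 0.981 CPM at pH 7.4, 1.25, 1.35, 1.15 and 0.895 CPM at pH 6.9, and 5.00, 8.09, 2.31 and 6.78 CPM at pH 6.4. All pH 6.4 libraries were above all others, and the log2 change over pH 7.4 was 2.91 (SE 0.39). At pH 6.9, 3 of 4 libraries exceeded the highest pH 7.4 library. IL24, on chromosome 1 at 206897443 to 206904139 (plus strand), had 0.145, 1.08, 1.21 and 1.27 CPM at pH 7.4, 1.55, 1.05, 0.974 and 1.13 CPM at pH 6.9, and 6.75, 9.41, 2.87 and 5.93 CPM at pH 6.4. Its pH 6.4 libraries also lay above all others. The log2 change was 2.75 (SE 0.47). Repeat 1 at pH 7.4, with 5 reads, was far below the other 3 libraries of that medium.

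RAB3B, on chromosome 1 at 51907956 to 51990764 (minus strand), had 2.06, 1.34, 1.30 and 1.69 CPM at pH 7.4, 1.31, 1.37, 0.866 and 0.816 CPM at pH 6.9, and 4.92, 11.7, 1.58 and 12.6 CPM at pH 6.4. Repeat 3 at pH 6.4 stayed within the range of the pH 7.4 libraries while the other 3 were above it. The log2 change was 2.26 (SE 0.48), and 2.74 without the pair of libraries that stood apart.

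RPSAP52 and HMGA2 overlap on chromosome 12. RPSAP52 runs on the minus strand from 65758020 to 65826997 and HMGA2 on the plus strand from 65824131 to 65966295, so that 2867 bases are shared, although 0 exonic bases are shared in the GENCODE annotation. No label states whether strand was used in the counting. Without strand, reads of the pair would mix only where the exons counted by the authors overlap, which release 29 of that annotation does not show. RPSAP52 had 1.28, 1.30, 1.44 and 2.63 CPM at pH 7.4, 2.21, 1.77, 1.70 and 3.26 CPM at pH 6.9, and 9.78, 15.3, 5.54 and 18.1 CPM at pH 6.4. All pH 6.4 libraries exceeded all others, with a log2 change of 2.85 (SE 0.37). HMGA2 had 59.6, 62.6, 89.2 and 97.5 CPM at pH 7.4, 67.1, 66.8, 80.7 and 103.2 CPM at pH 6.9, and 88.9, 122.1, 107.1 and 161.5 CPM at pH 6.4. Here the groups overlapped, with 3 of 4 pH 6.4 libraries above all pH 7.4 libraries.

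**Figure D1:**
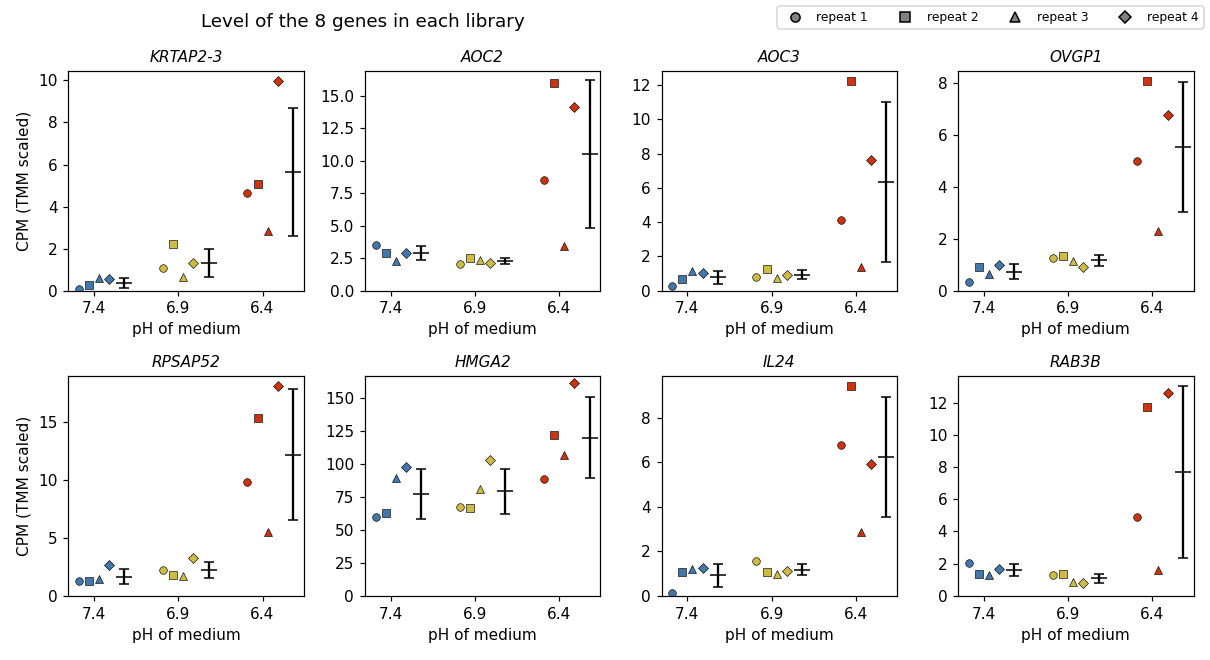
Level of each of the 8 genes in CPM (linear axes from 0, one scale per gene) in the 12 libraries by pH of the medium, with marker shape for the repeat number and a dash and bars for the mean and SD of 4 libraries. The pH 6.4 libraries scatter widely, and repeat 3 (triangle) is the lowest pH 6.4 library for 7 of the 8 genes.

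HMGA2 was tested at pH 6.4, since it was chosen for its position and not for its own rise. The test is not independent of the choice, since RPSAP52 was chosen on the same libraries. Across all 12 libraries Pearson's r of log2 CPM between HMGA2 and RPSAP52 was 0.836. HMGA2 averaged 119.9 ± 30.9 CPM at pH 6.4 and 77.2 ± 19.0 CPM at pH 7.4 (SD, n = 4 each), a 1.55-fold rise with a log2 change of 0.63 (SE 0.20, edgeR adjusted p = 0.0264). Of all genes tested, 15.6% were called higher in that comparison. The call was lost when any 1 of 4 libraries was left out, at a log2 change of 0.53 (edgeR adjusted p = 0.076) without repeat 1 at pH 7.4, 0.55 (0.0796) without repeat 2 at pH 7.4, 0.63 (0.0561) without repeat 2 at pH 6.4 and 0.46 (0.103) without repeat 4 at pH 6.4. It was also lost without the pair of libraries that stood apart, at 0.58 (0.0561). Over all alternatives the adjusted p ran from 0.000297 to 0.133.

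Relative to HMGA2, RPSAP52 had 2.14, 2.08, 1.62 and 2.70 reads per 100 HMGA2 reads at pH 7.4, 3.30, 2.64, 2.10 and 3.16 at pH 6.9, and 11, 12.5, 5.17 and 11.2 at pH 6.4. The pH 6.4 ratios were all above the rest, as a description, since RPSAP52 was chosen for its rise in that medium and HMGA2 was not. At pH 6.9 the ratio averaged 2.80 ± 0.55, against 2.14 ± 0.44 at pH 7.4 (SD, n = 4 each), a difference of 0.665 that an exact two-sided permutation test did not separate (p = 0.171, 0.314 adjusted over 2 ratios, with 0.0286 the smallest p possible). That test treats the groups as independent and does not use the repeat numbers, by which each pH 6.9 ratio lay above its pH 7.4 counterpart. The pH 7.4 reads of RPSAP52 also took part in its choice. AOC3 had 48.9, 76.4, 40.4 and 54.0 reads per 100 AOC2 reads at pH 6.4, against 8.26, 23.7, 49.0 and 35.9 at pH 7.4. These groups overlapped. At pH 6.9 this ratio was 40.1 ± 8.57 and at pH 7.4 it was 29.2 ± 17.4 (SD, n = 4 each, exact permutation p = 0.314).

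**Figure D2:**
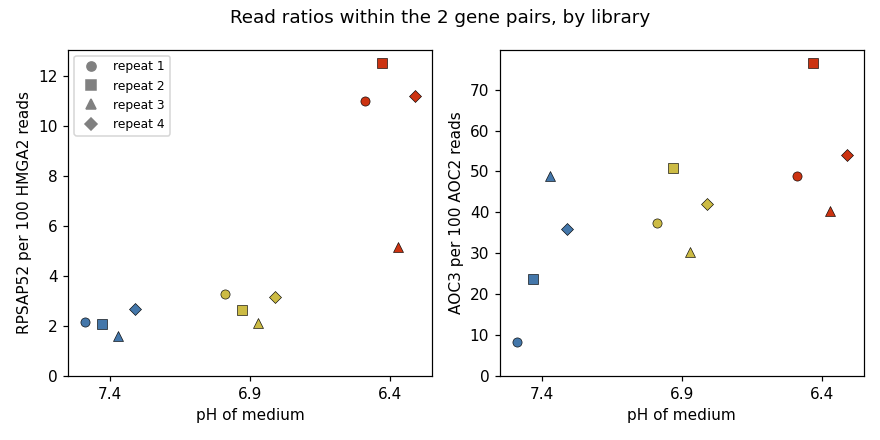
RPSAP52 reads per 100 HMGA2 reads (left) and AOC3 reads per 100 AOC2 reads (right) in each library by pH of the medium, on linear axes from 0, with marker shape for the repeat. The left ratio lies between 5.17 and 12.5 at pH 6.4, above the range of 1.62 to 3.30 in the other media, while the right ratio overlaps between media.

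No use of pH 6.9 levels was stated for the choice of the genes. That choice was still made with earlier results of these data known, and it used the same pH 7.4 libraries. For all genes but HMGA2 it asked for a low level at pH 7.4. This favours higher values of pH 6.9 over pH 7.4 for those genes, KRTAP2-3 included, so the tests below are not independent of the choice. In edgeR's test of pH 6.9 against pH 7.4, 0 of the 8 genes were called (0.724% of all genes were), 1 had an unadjusted p under 0.05, DESeq2 called 1 and limma-voom called 0. With so few genes called anywhere, a count of 0 among 8 says little about them. The gene with the low unadjusted p and the DESeq2 call was KRTAP2-3, which averaged 1.31 ± 0.667 CPM at pH 6.9 and 0.374 ± 0.24 CPM at pH 7.4 (SD, n = 4 each), a log2 change of 1.86 (SE 0.53, edgeR adjusted p = 0.134). DESeq2 gave 1.85 with an adjusted p of 0.0126, and edgeR with the repeat number as a block gave 1.93 with an adjusted p of 0.042. Over all alternatives the adjusted p of KRTAP2-3 ran from 0.0126 to 0.899. KRTAP2-3 was the only one of the 8 with all 4 pH 6.9 libraries above all pH 7.4 libraries, as were 5.18% of all genes. OVGP1 had a log2 change of 0.67 (SE 0.39, edgeR adjusted p = 0.544), RPSAP52 of 0.41 (SE 0.36, 0.740), IL24 of 0.36 (SE 0.47, 0.849), AOC3 of 0.26 (SE 0.56, 0.920) and HMGA2 of 0.04 (SE 0.20, 0.975). AOC2 and RAB3B had negative values, at -0.35 (SE 0.35, edgeR adjusted p = 0.790) and -0.54 (SE 0.49, 0.751).

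The change at pH 6.9 can also be given as a share of that at pH 6.4, which for 7 of the genes was the value that chose them, so that a small share follows in part from the choice. On the log2 scale this share was 47.3% for KRTAP2-3, 22.9% for OVGP1, 14.5% for RPSAP52, 12.95% for IL24, 8.59% for AOC3 and 6.46% for HMGA2. It was negative for AOC2 (-19.0%) and RAB3B (-23.9%). Over all genes called higher at pH 6.4 the median was 29.9%. These shares describe the libraries and carry no test. Set against pH 6.9 instead of pH 7.4, the log2 changes at pH 6.4 were 2.08 for KRTAP2-3, 2.20 for AOC2, 2.77 for AOC3, 2.24 for OVGP1, 2.44 for RPSAP52, 0.59 for HMGA2, 2.40 for IL24 and 2.80 for RAB3B. In that pair of media the 7 chosen genes did not overlap, as a description of genes chosen with the pH 6.4 libraries, in a comparison where 9.64% of all genes did so in this direction.

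**Figure D3:**
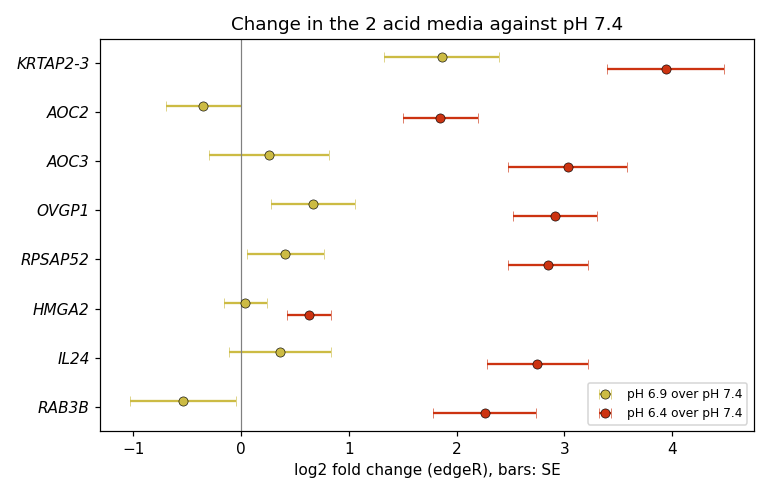
Fitted log2 fold change with its SE for the 8 genes, pH 6.9 over pH 7.4 (upper point) and pH 6.4 over pH 7.4 (lower point). Changes at pH 6.9 lie between -0.54 and 1.86, those at pH 6.4 between 0.63 and 3.94.

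At pH 6.4 against pH 7.4, 5 of the 8 had groups that did not overlap (KRTAP2-3, AOC3, OVGP1, RPSAP52 and IL24), where 14.4% of all genes did so upwards. That share follows from how the 7 were chosen. Without repeat 3 at pH 6.4 and repeat 1 at pH 7.4, which leaves 3 libraries per medium, AOC2 and RAB3B no longer overlapped either, making 7 of 8. The log2 changes were then 3.86 for KRTAP2-3, 2.25 for AOC2, 3.11 for AOC3, 2.93 for OVGP1, 2.98 for RPSAP52, 0.58 for HMGA2, 2.64 for IL24 and 2.74 for RAB3B. Repeat 3 was the lowest pH 6.4 library for 7 of the 8 genes, all but HMGA2, and the highest was repeat 2 for 4 genes and repeat 4 for 4. Repeat 1 was the lowest pH 7.4 library for 6 of the 8 genes and the highest for AOC2 and RAB3B. With 3 reads of KRTAP2-3 and 5 of IL24, it lowered the level from which their rise was measured. Without it alone KRTAP2-3 had a log2 change of 3.63. Within pH 6.4, the highest library exceeded the lowest by 8.80-fold for AOC3 and 7.97-fold for RAB3B, but by 1.82-fold for HMGA2. In bulk RNA, more RNA per cell and a larger share of cells with the RNA cannot be told apart.

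Per kilobase of exon, HMGA2 was the most abundant in all media, at 7.78 ± 2.00 CPM per kb at pH 6.4 (SD, n = 4). It was followed there by KRTAP2-3 (6.44 ± 3.49), RPSAP52 (5.98 ± 2.76), AOC2 (3.96 ± 2.15), IL24 (3.15 ± 1.36), OVGP1 (2.16 ± 0.975), AOC3 (1.40 ± 1.04) and RAB3B (0.600 ± 0.415). Each neighbouring pair in this order differed by less than the larger SD of the pair. At pH 7.4 HMGA2 had 5.01 ± 1.23 CPM per kb, and AOC2 came next at 1.09 ± 0.189, far below it. RPSAP52 followed at 0.817 ± 0.319, IL24 at 0.468 ± 0.266, KRTAP2-3 at 0.428 ± 0.274, OVGP1 at 0.282 ± 0.112, AOC3 at 0.173 ± 0.0841 and RAB3B at 0.125 ± 0.0275. Apart from HMGA2 against AOC2 and RPSAP52 against IL24, neighbours in that order also differed by less than the larger SD. KRTAP2-3 thus moved up 3 places between these media.

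Relatives and partners of the 8 genes were counted in 7 lists of 175 genes, of which 61 passed the filter. At pH 6.4 against pH 7.4, 21 of the 61 were called in either direction, beside 30.3% of all genes (15.6% higher and 14.7% lower). Without repeat 2 at pH 6.4 the count was 13. At pH 6.9 against pH 7.4, 0 were called in edgeR, 4 had an unadjusted p under 0.05, DESeq2 called 1 and limma-voom 0. With the repeat number as a block edgeR called 2. None of the list medians below carries a test, and the median log2 change over all genes was -0.001.

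Of 29 keratin-associated proteins and hair keratins, 5 were tested and 0 called in edgeR, with a median log2 change of 0.46. The hair keratin KRT81 averaged 102.6 ± 52.8 CPM at pH 6.4 and 74.5 ± 31.8 CPM at pH 7.4 (SD, n = 4 each), a log2 change of 0.46 (edgeR adjusted p = 0.415), and KRT86 had -0.38 (0.215). Without the pair of libraries that stood apart KRT86 was called lower, at -0.58 (0.0373). Of 11 amine oxidase genes, 9 were tested, 2 rose and 2 fell, with a median of -0.01. SMOX, which oxidises spermine, rose 2.03-fold (log2 1.02, edgeR adjusted p = 0.000131), and LOX, which cross-links collagen, rose by 0.57 (0.00269). MAOB, a mitochondrial monoamine oxidase, fell by 0.97 (0.0149), a call lost without repeat 2 at pH 6.4 (-0.87, 0.0509). LOXL4 fell by 0.49 (0.0471), but lost its call without any 1 of 9 of the 12 libraries, at -0.54 to -0.37.

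Of 6 chitinase-like genes, 3 were tested and 0 called in edgeR. CTBS, a lysosomal chitobiase, had a log2 change of 0.17 (edgeR adjusted p = 0.429) and CHID1 of -0.16 (0.509), and both took the opposite sign without the pair of libraries that stood apart. Of 16 interleukin 10 and 20 family ligands, receptors and carriers, 9 were tested, 2 rose and 0 fell, with a median of 0.03. STAT3 rose by 0.46 (edgeR adjusted p = 0.00559) and JAK1 by 0.27 (0.0397), a call that JAK1 lost without any 1 of 9 libraries, at 0.21 to 0.29. The receptor chains that pair for IL24 were low in the most acid medium, at 0.313 CPM for IL20RA, 0.792 CPM for IL20RB and 0.470 CPM for IL22RA1, and IL19 and IL20, which lie beside IL24, averaged at most 0.0594 CPM in any medium.

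Of 13 genes of the HMGA and let-7 pathway, 9 were tested, 6 rose and 0 fell, with a median of 0.51, where 15.6% of all genes were called higher. HMGA1, the sister gene of HMGA2, averaged 2068 ± 489.6 CPM at pH 6.4 and 1075 ± 268.5 CPM at pH 7.4 (SD, n = 4 each), a 1.92-fold rise (log2 0.94, edgeR adjusted p = 0.00341). The RNA-binding proteins IGF2BP3 and IGF2BP2 rose by 0.55 (edgeR adjusted p = 0.000698) and 0.53 (0.003). ARID3B, a DNA-binding let-7 target, rose by 0.56 (0.0417), with the call lost without any 1 of 7 libraries, at 0.40 to 0.61. LIN28A had no reads at pH 7.4, pH 6.9 or pH 6.4. LIN28B had none at pH 7.4 and averaged 0.0496 CPM at pH 6.9 and 0.0171 CPM at pH 6.4, with at most 10 reads in any library.

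Of RPSA and its 74 processed pseudogenes other than RPSAP52, 5 were tested and 0 called in edgeR, with a median of -0.02. RPSA, the parent gene of RPSAP52, averaged 319.5 ± 36.9 CPM at pH 6.4 and 333.8 ± 64.0 CPM at pH 7.4 (SD, n = 4 each), a log2 change of -0.06 (edgeR adjusted p = 0.772), and RPSAP58 had -0.02 (0.954). Both took the opposite sign without the pair of libraries that stood apart. Of 25 genes of the RAB3 cycle and vesicle docking, 21 were tested, 5 rose and 4 fell, with a median of -0.02. SYTL2, a RAB27 effector, fell by 1.27 (edgeR adjusted p = 0.000208) and SYTL4 by 0.48 (0.0145). MADD, an exchange factor that loads RAB3 with GTP, rose by 0.50 (0.00276). RIMS2, a RAB3 effector, fell by 1.01 (0.0405), with the call lost without any 1 of 7 libraries, at -1.01 to -0.81.

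**Figure D4:**
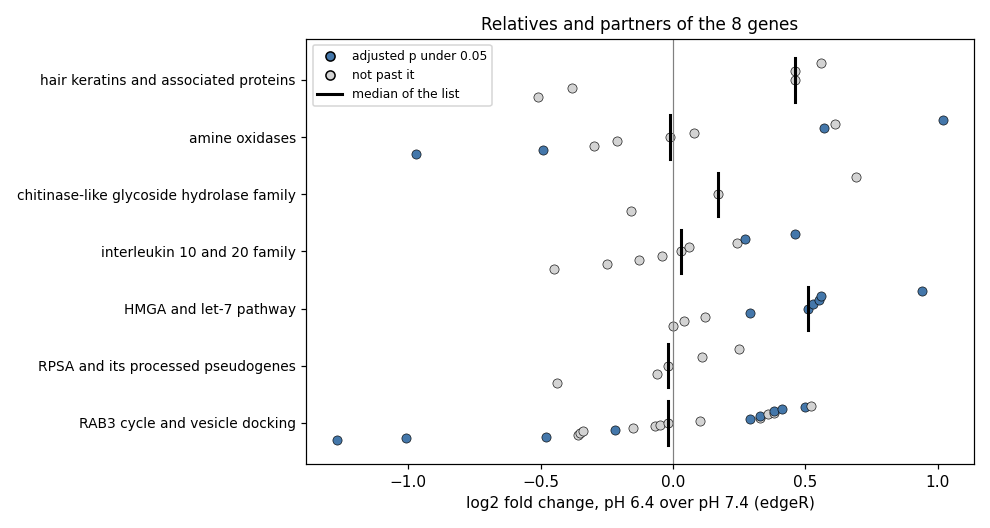
Log2 fold change, pH 6.4 over pH 7.4, of the tested genes of 7 lists of relatives and partners, each dot a gene and each bar the list's median. The HMGA and let-7 list has its median at 0.51 and 6 called genes of 9 tested, all higher, where 15.6% of all genes were called higher. The other medians lie between -0.02 and 0.46.

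The next tested gene on each side of each locus was read in the same comparison, with values as log2 changes. PSME3, 0.8 kb before AOC2, averaged 192.1 ± 9.81 CPM at pH 6.4 and 243.3 ± 19.5 CPM at pH 7.4 (SD, n = 4 each), a fall of 0.34 on the log2 scale (edgeR adjusted p = 0.00521), and AARSD1 on the other side had 0.23 (0.543). FCMR, on the opposite strand with its 3′ end 0.2 kb past IL24, had -0.50 (0.133) and was called lower without repeat 1 at pH 7.4 (-0.65, 0.0405). Without the pair of libraries that stood apart FCMR was called lower too (-0.77, 0.0156). MAPKAPK2, 163.2 kb on the other side, rose by 0.46 (0.00707). Around RAB3B, NRDC had -0.09 (0.540) and TXNDC12 had 0.52 (0.0718). TXNDC12 was called higher without repeat 2 at pH 7.4 (0.66, 0.0381) or repeat 3 at pH 6.4 (0.63, 0.0293). It was also called higher without the pair of libraries that stood apart (0.68, 0.025). Beside RPSAP52 and HMGA2, PCNPP3 had 1.10 (0.204) and LLPH had -0.26 (0.161), and beside KRTAP2-3, KRT39 had -0.51 (0.673) and KRT34 had 0.46 (0.417). KRT39 was called lower without the pair of libraries that stood apart (-1.60, 0.0303).

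A neighbour of OVGP1 was called higher. ENSG00000260948 (AL390195.2 in GENCODE), 3.3 kb upstream on the same strand, averaged 2.26 ± 0.968 CPM at pH 6.4 and 0.569 ± 0.424 CPM at pH 7.4 (SD, n = 4 each), a log2 change of 1.97 (edgeR adjusted p = 0.0275). The call was lost when 1 of 4 libraries was left out, namely repeat 2 at pH 7.4 (1.99, 0.0563), repeat 3 at pH 7.4 (2.02, 0.0531), repeat 2 at pH 6.4 (1.86, 0.0721) and repeat 4 at pH 6.4 (1.72, 0.0866). PIFO, 61.3 kb on the other side, fell by 1.54 (0.017), a call lost without repeat 2 at pH 7.4 (-1.31, 0.0562), repeat 1 at pH 6.4 (-1.32, 0.0528) or repeat 4 at pH 6.4 (-1.38, 0.0554).

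Further genes within 100 kb of each locus were looked at after their values had been seen. Around AOC2 and AOC3, 7 genes were tested, 4 were called higher and 2 lower, where 15.6% and 14.7% of all genes were. Around OVGP1 1 of 6 was called higher and 3 lower, around RAB3B 1 of 4 higher, inside HMGA2 1 of 1 higher, and the 1 tested near KRTAP2-3 and the 1 near IL24 were not called. WNK4, a kinase that regulates ion cotransport and lies 47.7 kb from AOC2, had 4.97 to 19.9 CPM at pH 6.4, against 0.434 to 1.45 CPM at pH 7.4. It was 12.3-fold higher (log2 3.63, SE 0.45, edgeR adjusted p = 8.14e-05), a call kept under every alternative run. BECN1, between WNK4 and AOC2, rose by 0.29 (0.0295), while COA3 fell by 0.55 (0.00746), so that small and opposite changes lay between the steep ones. COA3, at 42795147 to 42798704 on the minus strand, overlaps at its 3′ end the end of WNK4, which runs to 42796936 on the plus strand. BECN1 on the minus strand and PSME3 on the plus strand overlap at their 5′ ends. Without strand in the counting, reads of each pair could mix where exons overlap, which was not looked at for these genes. Within an intron of HMGA2, ENSG00000277945 (AC107308.1 in GENCODE, 65830750 to 65831050, plus strand) averaged 2.86 ± 0.750 CPM at pH 6.4 and 0.913 ± 0.264 CPM at pH 7.4 (SD, n = 4 each), a log2 change of 1.63 (edgeR adjusted p = 0.0026). It is annotated on the strand of HMGA2, so its reads and unspliced HMGA2 RNA cannot be told apart.

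**Figure D5:**
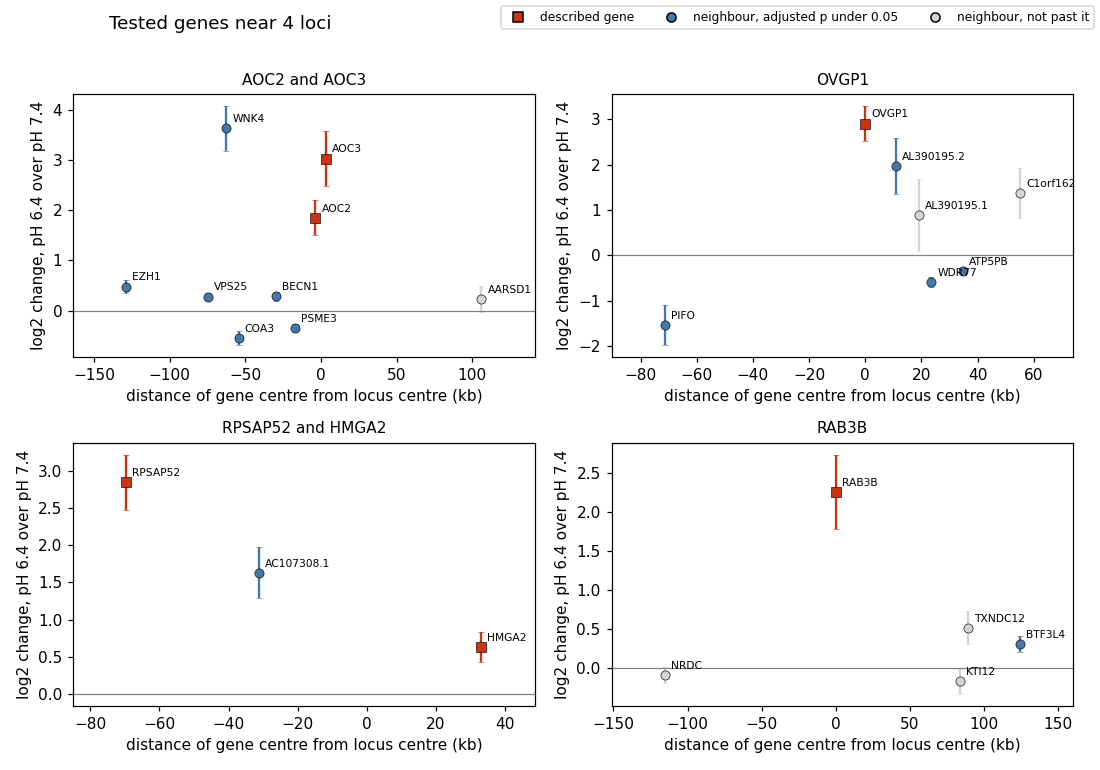
Log2 fold change with SE, pH 6.4 over pH 7.4, of tested genes around 4 of the loci, against the distance of each gene's centre from the locus centre in kb. Squares are the described genes, blue circles are called neighbours and grey circles are others. WNK4 at 3.63 stands beside AOC3 at 3.03 and AOC2 at 1.85, with smaller changes between them.

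Across the 12 libraries the 8 genes tracked each other to different degrees, as Pearson's r of log2 CPM. These libraries share the 3 media and differ in depth. All of the genes but HMGA2 were chosen for their rise in strongly acid medium. High r among the chosen genes thus follows in part from that choice. The other genes named here were picked for having the highest r. Shared control was not tested. AOC2 and RAB3B were closest (0.982), and HMGA2 and RAB3B farthest (0.627). Among all other tested genes, AOC2 was closest to YIF1A (0.993) and RUSF1 (0.991), RAB3B to ATP6V0A1 and SRP68 (0.987 each), OVGP1 to ASB1 (0.986) and SSH1 (0.984), and AOC3 to PCNX1 and FBXW7 (0.984 each). KRTAP2-3 was closest to CPED1 (0.981) and EXPH5 (0.975), RPSAP52 to ZEB1 and PPP2R5A (0.978 each), HMGA2 to CNOT3 (0.981) and PABPC1 (0.977), and IL24 to MATN1-AS1 (0.979) and ENSG00000235859 (0.977).

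Markers of the cells in which some of these genes are best known were read beside them. The 6 oviduct markers summed to 19.7 to 29.2 CPM at pH 6.4 and 33.9 to 52.5 CPM at pH 7.4, carried by PAX8, which fell by 1.27 (edgeR adjusted p = 0.00013), with FOXJ1 at 0 in all pH 6.4 libraries. The 6 smooth muscle markers summed to 85.0 to 176.9 CPM at pH 6.4 and 41.7 to 62.9 CPM at pH 7.4, nearly all SMTN, which rose by 1.22 (edgeR adjusted p = 0.000916), while MYH11 was at 0 in all pH 6.4 libraries and DES and ACTG2 averaged 0.0122 and 0.0287 CPM there. The 6 endothelial markers summed to 13.5 to 17.9 CPM at pH 6.4 and 9.54 to 17.3 CPM at pH 7.4, with CLDN5 at 0 throughout, PECAM1 at 7.88 CPM at pH 6.4 and 7.83 CPM at pH 7.4, and KDR called higher, at 7.83 CPM and 4.15 CPM in these media (log2 0.91, edgeR adjusted p = 0.0311). The 6 adipocyte markers summed to at most 0.925 CPM in any library. The 5 hair and keratinocyte markers in the table summed to 42.2 to 71.3 CPM at pH 6.4 and 46.7 to 61.2 CPM at pH 7.4, carried by KRT10 and TRPS1, which averaged 39.1 and 16.4 CPM at pH 6.4, while KRT5 and KRT14 averaged 0.0194 and 0.115 CPM there and KRT1 was at 0. The 6 leukocyte markers summed to 2.02 to 3.27 CPM at pH 6.4 and 4.46 to 7.03 CPM at pH 7.4. The part of these marker changes in the values of AOC3, OVGP1 and KRTAP2-3 was not tested.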

How the data were processed

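RNA from 12 libraries was sequenced after poly(A) selection with a stranded kit read over 75 cycles, per the labels' protocols. The authors deposited raw counts of reads per gene. The submitters' processing notes name STAR, featureCounts and the build GRCh38.p13 (hg38), with no versions or strand setting. Counts were analysed with edgeR 4.0.16 in R 4.3.3: genes were filtered with filterByExpr (17544 of 60664 kept), scaled with TMM and fitted with 1 term per medium over all 12 libraries (9 residual degrees of freedom). The robust quasi-likelihood test gave p-values adjusted by Benjamini-Hochberg over all tested genes, called under 0.05. Totals of 21060767 to 50643233 counts set the precision. DESeq2 1.42.0, limma 3.58.1 with voom, other filters, a replicate block and left-out libraries were alternatives. Gene coordinates and the count of shared 75-base windows came from GENCODE release 29, and promoters from RefSeq. The 8 genes, the lists and the markers were chosen with earlier results of these data known. Named genes were, per list, up to 4 called genes with the largest change at pH 6.4 against pH 7.4, or up to 2 of the highest level where none was called. To these came the nearest tested gene on each side of a locus and, per gene, the 2 others with the highest correlation. For the HMGA and let-7 list the remaining tested genes are also named. The repeat numbers were not used to pair libraries in the main fit, because the labels do not say that they pair them. The lowest correlation between same-numbered libraries was also 0.08, under the 0.1 asked of every pair. It lay between repeat 1 at pH 7.4, which stood apart, and repeat 1 at pH 6.9.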

Additional observations from a re-analysis of the deposited data

Results flagged for a closer look

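In the pH 7.4 group, RPSAP52 in repeat 4 stood at 2.63 CPM, far above the other 3 libraries of that medium at 1.28, 1.30 and 1.44 CPM. Of the 24 combinations of gene and medium screened, it was the only one in which the gap to the nearest library, as a share of the range, passed Dixon's 95% critical value, which chance passes in about 1 of 20. IL24 in repeat 1 at pH 7.4, at 0.145 CPM against 1.08 to 1.27 CPM in the other 3 libraries, did not pass it. Repeat 4 was also the highest library for RPSAP52 at pH 6.9, at 3.26 CPM, and at pH 6.4, at 18.1 CPM. It was the highest for HMGA2 in each medium as well.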

How the results depend on the processing

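The count of called genes at pH 6.4 against pH 7.4 was 5321 and fell to 1528 with repeats 3 and 4 alone, and ran from 3795 to 6411 with 1 library left out. At pH 6.9 against pH 7.4 it was 127, with 559 in DESeq2, 201 without a filter, 250 in a fit of only both media, 7 with repeats 1 and 2 alone, 0 with repeats 3 and 4 alone, 216 without the pair that stood apart and 39 to 306 with 1 library left out. At pH 6.4 against pH 6.9 it was 2988, with 1906 for repeats 1 and 2, 0 for repeats 3 and 4, 6186 without the pair that stood apart and 1171 to 4944 with 1 library left out. With the repeat number as a replicate block the counts were 947 and 5456 in these 2 comparisons, KRTAP2-3 at pH 6.9 was called (1.93, edgeR adjusted p = 0.042), as were KRT81 (0.43) and TXNDC12 (0.53) at pH 6.4, and 2 related genes were called at pH 6.9. Taken as deviations from their medium's mean, same-numbered libraries correlated between 0.08 and 0.47 over 12 pairs. Other pairs ran from -0.438 to 0.247 over 36. The best match had the same number for 10 of 12 libraries, a hint from the data and not the design. Pairs joining repeats 1 and 2, or 3 and 4, were all positive, and those joining 1 or 2 with 3 or 4 all negative. The main fit has no term for this split, and its source was not tested. DESeq2 called KRTAP2-3 at pH 6.9 (1.85, adjusted p = 0.0126) and 1 related gene there. HMGA2 at pH 6.4 lost its call without a filter (0.65, edgeR adjusted p = 0.128), with repeats 3 and 4 alone (0.54, 0.133) and without the pair that stood apart (0.58, 0.0561), and ran from 0.46 to 0.77 with 1 library left out. At pH 6.9, HMGA2 changed sign with repeats 3 and 4 alone (-0.0255), without the pair that stood apart (-0.0601) and over left-out libraries (-0.109 to 0.18). Repeats 3 and 4 alone turned AOC3 (-0.405) and IL24 (-0.238) at pH 6.9, and gave 5 called related genes at pH 6.4, where the count was 21, and 13 to 22 with 1 library left out. Of genes near 0 at pH 6.4, signs turned with repeats 3 and 4 alone for CHID1 (0.061), RPSA (0.0698) and RPSAP58 (0.0737), and without the pair that stood apart for CHID1 (0.0376), CTBS (-0.0535), RPSA (0.0568) and RPSAP58 (0.0354). Over left-out libraries they turned for CHID1 (-0.262 to 0.0047), RPSA (-0.147 to 0.0444) and RPSAP58 (-0.115 to 0.0496). The cause of these moves was not tested. Counts of 3 to 57 reads at pH 7.4 limit the precision of the fold changes of KRTAP2-3, AOC3, OVGP1 and IL24.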
